A study of Mus musculus with 7 samples.

Results

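Pancreatic islets of mice are picked out of digested pancreas, and the 7 RNA-seq samples described here differed widely in how much exocrine RNA came with them. Of these 7, 3 are treated as acinar-rich and 4 as acinar-poor. The acinar-rich samples were chosen by their own measured counts, as those with the 3 highest shares of counts in 10 digestive enzyme genes (Prss2, Cpa1, Cpb1, Ctrb1, Ctrl, Cela1, Cela3b, Pnlip, Cel and Clps). They are control 1, Traf6 KO 1 and Traf6 KO 2. The acinar-poor samples are controls 2 and 3, the sample labelled control 4 and Traf6 KO 3. Since the counts themselves formed the sets, every difference between the sets below is a description without a test, and tests were run only between genotypes.

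The study sequenced total RNA of islets from 4 control mice and 3 mice in which Traf6, the gene of a ubiquitin ligase of innate immune receptor signalling, was knocked out in beta cells only, per the series' design text. All 7 mice ate a diet with 60% fat for 15 weeks, and all islets recovered for 24 hours in RPMI-1640 medium with serum before RNA was taken, so the controls shared both. The labels give neither the driver of the knockout nor the age or sex of the mice, and neither set has an arm on another diet. Each sample carries a tag of its own and is taken as 1 mouse. If some came from 1 animal, the spread behind the p-values would be partly technical.

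Acinar cells form most of the exocrine pancreas. They make digestive enzymes, mostly as inactive zymogens, fold them in an extensive endoplasmic reticulum, store them in zymogen granules and release them into the duct when cholecystokinin or acetylcholine is received. Their identity rests on the PTF1 complex, in which the bHLH factor Ptf1a and its partner Rbpjl bind an E box next to a TTTCCCA-like box in the promoters of enzyme genes, while Bhlha15 (Mist1) governs the secretory apparatus. In islet preparations, acinar RNA enters with cells that cling to the islets or survive digestion.

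Some promoters of the enzyme genes that formed the sets hold both kinds of box. RefSeq promoters of the build GRCm38.p6 held an entry for 9 of the 10 genes, and the 250 bases before the start of 4 of them are printed because they hold both boxes. Capitals mark every CANNTG (the E box, where N is any base) and every TTTCCCA, read here as TGGGAAA where it lies on the other strand.
Ctrb1 (chr8:111691011-111691260, reverse strand): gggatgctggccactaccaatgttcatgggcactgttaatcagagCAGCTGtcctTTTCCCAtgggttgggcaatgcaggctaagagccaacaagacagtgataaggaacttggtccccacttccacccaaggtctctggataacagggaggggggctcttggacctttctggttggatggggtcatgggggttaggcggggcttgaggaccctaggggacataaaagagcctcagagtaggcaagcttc
Cpa1 (chr6:30638968-30639217, forward strand): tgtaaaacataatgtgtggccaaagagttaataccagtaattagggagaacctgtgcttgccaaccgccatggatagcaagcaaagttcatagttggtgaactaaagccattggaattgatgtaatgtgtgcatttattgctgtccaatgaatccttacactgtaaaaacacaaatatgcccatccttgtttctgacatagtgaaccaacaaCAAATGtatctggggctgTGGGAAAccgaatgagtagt
Cel (chr2:28563404-28563653, reverse strand): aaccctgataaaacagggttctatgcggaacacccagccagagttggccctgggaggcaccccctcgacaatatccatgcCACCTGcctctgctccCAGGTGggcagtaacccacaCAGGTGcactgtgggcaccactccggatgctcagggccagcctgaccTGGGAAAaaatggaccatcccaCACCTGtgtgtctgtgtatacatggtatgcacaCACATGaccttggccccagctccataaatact
Prss2 (chr6:41521526-41521775, forward strand): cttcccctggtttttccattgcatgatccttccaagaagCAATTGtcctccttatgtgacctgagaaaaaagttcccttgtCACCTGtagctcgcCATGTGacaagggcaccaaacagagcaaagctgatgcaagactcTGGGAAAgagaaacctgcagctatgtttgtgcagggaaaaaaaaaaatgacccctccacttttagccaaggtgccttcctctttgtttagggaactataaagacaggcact
In the Ctrb1 promoter the E box began 205 and the TTTCCCA box 195 bases before the start, and in that of Cpa1 they began 38 and 20 bases before it. Searched on both strands, CANNTG was in 8 of the 9 promoters and in 66.2% of all 32851 RefSeq promoters of the same length. TTTCCCA was in 4 of the 9 and in 6.82% of all promoters, and both together were in 4 of the 9 and in 4.65% of all. CATATG, an E box preferred by Bhlha15, was in 0 of the 9 and in 3.46% of all. The motif CATATG is 1 form of CANNTG, and a match describes letters, not binding.

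The library totals ran from 22104256 to 29917292 counts. The share of the 10 genes was 13.6% in control 1, 38.3% in Traf6 KO 1 and 29.99% in Traf6 KO 2. It was 0.319% in control 2, 0.308% in control 3, 2.195% in the sample labelled control 4 and 1.096% in Traf6 KO 3. Control 1 thus lies just inside the choice and the sample labelled control 4 just outside it, and the acinar-poor samples vary among themselves as well. No exact (Clopper-Pearson) 95% interval of these shares was wider than 0.041 percentage points, which covers counting error only. Without the exocrine gene lists described below, 23578606, 9115856 and 13789372 counts remained in control 1, Traf6 KO 1 and Traf6 KO 2, against 21366712 to 27293067 in the acinar-poor samples, so islet genes were read less deeply in both acinar-rich Traf6 KO samples. Genes with at least 10 counts numbered 14307 to 15695 in acinar-rich and 16196 to 16490 in acinar-poor samples. Mitochondrially encoded genes took 0.921% to 1.53% of counts in acinar-rich and 1.94% to 3.41% in acinar-poor samples. These are shares of totals that include the exocrine counts. Scaled by the total and its TMM factor (CPM), the summed level of these genes was 15024 to 19867 CPM in acinar-rich samples. It was 14251 to 24342 CPM in acinar-poor samples, so the sets overlapped. The part of mitochondrially encoded genes in the differences of single genes was not tested.

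The targeted gene and the labels touch both sets. Traf6 stood at 17.9, 25.5 and 22.1 CPM in controls 1 to 3, at 12.6 CPM in the sample labelled control 4, and at 14.7, 15.3 and 14.5 CPM in Traf6 KO 1 to 3 (CPM is the count scaled by the total and its TMM factor). The sample labelled control 4 had the lowest level of the 7, so this gene goes against its label, although whole-gene counts do not show a deleted exon. Traf6 KO 3 was the only sample with high Xist (12998 counts, at most 11 in the others) and 0 counts of Ddx3y. All 3 acinar-rich samples have neighbouring tags (Q819, Q820 and Q821), and the acinar-poor ones carry the tags Q952, R037, S214 and S267. What the tag stands for is not given in the labels, and it and the acinar content cannot be told apart here. In bulk RNA, fewer cells of a type and less RNA per cell cannot be told apart either.

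Labelled as isolated islets, every sample held the hormone genes of the islet at a high level. Insulin genes took 16.2%, 5.07% and 6.42% of all counts in control 1, Traf6 KO 1 and Traf6 KO 2, and 10.3% to 20.5% in the acinar-poor samples. Each of the 5 acinar markers, Ctrb1, Cpa1, Prss2, Pnlip and Ptf1a, was higher in every acinar-rich sample than in every acinar-poor one. Of these only Ptf1a is not among the 10 genes that formed the sets, so the separation of the other 4 was fixed by the choice. No marker was absent from any sample, and Ptf1a had the lowest count, 4 in control 3.

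**Figure D1:**
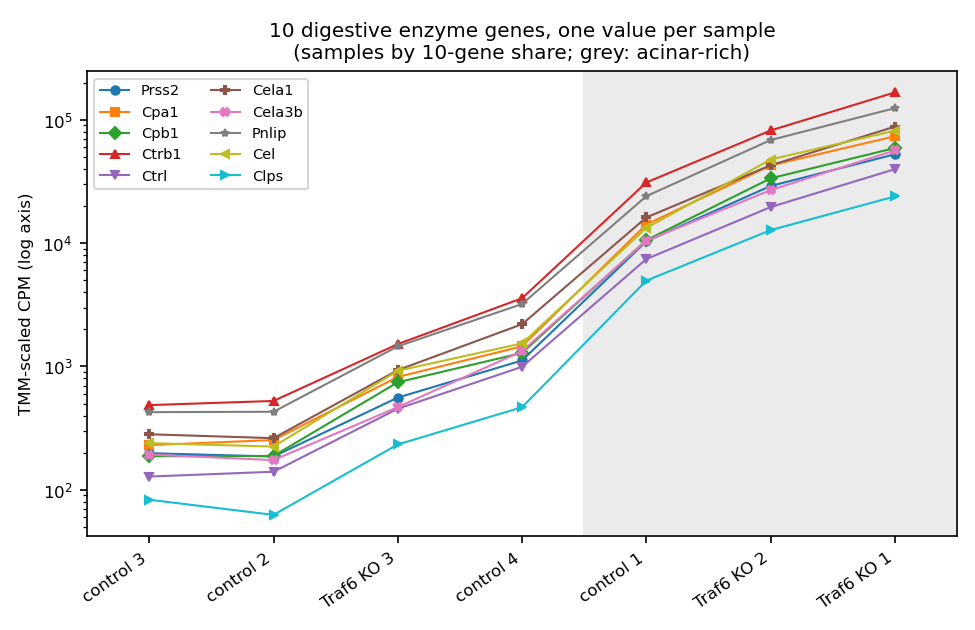
Level of the 10 digestive enzyme genes that formed the sets, in TMM-scaled CPM on a log axis, 1 point per gene and sample, with samples ordered by their 10-gene share and the acinar-rich ones on grey. Ctrb1 runs from 486 CPM in control 3 to 166699 CPM in Traf6 KO 1, and the genes rise in parallel from left to right.

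Digestive enzyme genes differed the most. Ctrb1, which encodes chymotrypsinogen B (chr8:111686519-111691010 on GRCm38, reverse strand), stood at 31024 CPM in control 1, 166699 CPM in Traf6 KO 1 and 81908 CPM in Traf6 KO 2. It stood at 525 and 486 CPM in controls 2 and 3, 3573 CPM in the sample labelled control 4 and 1518 CPM in Traf6 KO 3. The sets did not overlap, and Traf6 KO 1 exceeded control 1 although both are acinar-rich. The difference of the medians, acinar-rich minus acinar-poor on the log2(CPM + 1) scale, was 6.52, and over all 10 genes it ran from 6.27 in Ctrl to 6.66 in Cel. Pnlip, the pancreatic lipase, stood at 24026, 124301 and 68477 CPM in the acinar-rich samples and at 429, 426, 3209 and 1455 CPM in controls 2 and 3, the sample labelled control 4 and Traf6 KO 3. Cpa1, a carboxypeptidase, stood at 14148, 73499 and 42652 CPM against 253, 230, 1455 and 822 CPM in the same order, and Prss2, a trypsinogen, at 10341, 52525 and 29047 CPM against 186, 198, 1118 and 559 CPM. These genes put the samples in 1 order above controls 2 and 3: Traf6 KO 3, the sample labelled control 4, control 1, Traf6 KO 2 and Traf6 KO 1. The TMM factor of Traf6 KO 1 was 0.5, which raises its CPM against those on plain totals.

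Across the table, 16203 genes passed the low-count filter. A gene is called here when no acinar-rich sample overlaps the acinar-poor ones and the medians lie at least 1 apart on the log2(CPM + 1) scale, a factor of 2. By this rule 452 genes (2.79%) were called higher and 44 genes (0.272%) lower in acinar-rich samples. With no minimum size, 1637 genes (10.1%) lay higher and 1361 genes (8.4%) lower without overlap. The sets were formed from the same counts, so these shares give the background and no support. The split depended on scaling, since enzyme counts crowd the totals: on plain totals 266 genes were called higher and 2474 lower, and the median difference over all genes moved from -0.03 to -0.69. Calls were 91.1% higher ones with TMM and 9.71% on plain totals. All 266 are among the 452, and all 44 lower genes were also called lower on plain totals.

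Of the 31 digestive enzyme genes in the table, 29 passed the filter, all 29 lay higher without overlap, and 28 were called higher, with a median difference of 6.25 against -0.03 over all genes tested. The 10 genes that formed the sets are among the 28, and their separation was fixed by the choice. The genes that did not pass were Amy2a3 and Dnase1, and Amy2a2 was too small in difference (0.84) to be called. Amy2a2 had 0, 0, 4 and 1 counts in controls 2 and 3, the sample labelled control 4 and Traf6 KO 3. Such a gene passed the filter through the acinar-rich samples, so its place above the others is no support. Compared per length, as CPM per kb of exon, the highest medians over the acinar-rich samples were those of Ctrb1 (93289), Cela2a, an elastase (37400), Prss2 (35641), Pnlip (31197) and Try4, a trypsinogen (25735). The 6 amylase entries together took 0.0568% to 0.101% of enzyme counts in all 7 samples. Amy2b, the amylase entry with the highest ratio to the 10-gene sum in every sample (0.504 to 0.940 per 1000), is an unprocessed pseudogene in GENCODE M21. Trypsinogens and amylases include near-identical copies, and the level of a single copy is uncertain, since reads can be divided between copies.

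The composition of the enzyme counts was similar in acinar-rich and acinar-poor samples although their amount was not. Lipases and colipase took 25% to 27.8% of enzyme counts across the 7 samples, elastases 23.9% to 29.6%, chymotrypsinogens 17.1% to 19.1%, carboxypeptidases 12.7% to 15% and trypsinogens 9.98% to 14.2%. Relative to the 10-gene sum, 21 of 24 enzyme genes with at least 20 counts in every sample kept their highest ratio within 2-fold of the lowest. The 10 genes are part of their own sum, which narrows their ratios. Beyond 2-fold were Try5 (2.06-fold), Amy2a5 (2.19-fold) and Prss3 (24.8-fold).

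Prss3, a trypsinogen gene (chr6:41373814-41377678 on GRCm38, reverse strand), departed from the rest. Per 1000 counts of the 10 genes it had 9.46 counts in control 1, 4.19 in Traf6 KO 1 and 3.85 in Traf6 KO 2. It had 0.547 in control 2, 0.382 in control 3, 0.520 in the sample labelled control 4 and 0.507 in Traf6 KO 3. All acinar-rich samples were above all acinar-poor ones, and control 1, which had the least acinar RNA of its set, was the highest. Prss1, another trypsinogen gene on chromosome 6, followed it with 0.474, 0.184 and 0.164 against 0.0114, 0.0358, 0.0370 and 0.0359, but on only 1, 3, 18 and 9 counts in the acinar-poor samples. Try10, which lies nearer to Prss3 than Prss1 does, ran from 0.417 to 0.725 and Try4 from 44.9 to 69.4 over all samples, so not every copy behaved in this way. Whether reads were divided differently between copies was not tested.

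**Figure D2:**
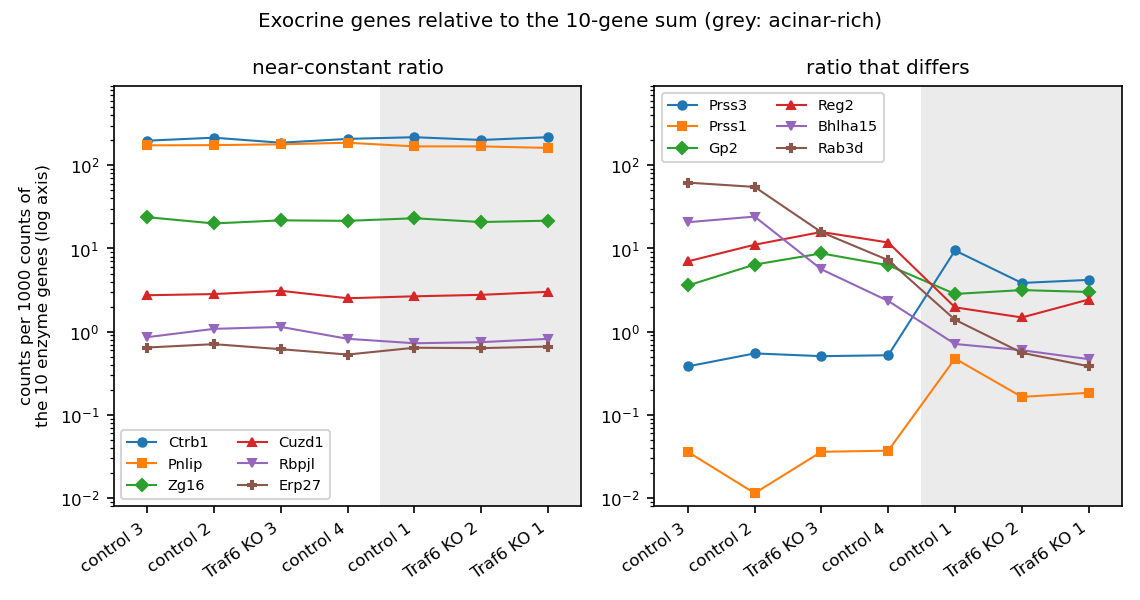
Counts of exocrine genes per 1000 counts of the 10 enzyme genes, on a log axis, 1 point per sample in order of the 10-gene share with acinar-rich samples on grey; the 12 genes were picked after their values were seen. In the left panel Zg16 stays between 20 and 23.8, and in the right panel Prss3 rises from 0.382 to 9.46 while Rab3d falls from 62 to 0.383.

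Granule proteins moved with the enzymes. All 11 zymogen granule genes passed the filter and lay higher without overlap, 10 were called, and the median difference was 6.01. Zg16, a lectin of the granule membrane, stood at 3293, 16546 and 8410 CPM in control 1, Traf6 KO 1 and Traf6 KO 2, against 48.9, 58.4, 369 and 177 CPM in controls 2 and 3, the sample labelled control 4 and Traf6 KO 3. Its ratio to the 10-gene sum was 20 to 23.8 per 1000 in all samples. Cuzd1, another granule membrane gene, kept to 2.52 to 3.10 per 1000, and Spink1, the trypsin inhibitor of the granule, to 0.711 to 1.15. Gp2, the main granule membrane glycoprotein, was relatively richer in acinar-poor samples, with 6.40, 3.59, 6.28 and 8.73 per 1000 against 2.84, 3.00 and 3.16, and the sets did not overlap. Rab3d, a GTPase of secretory granules that islet cells also express, differed least, with 198, 293 and 226 CPM against 134, 152, 124 and 128 CPM. On plain totals its difference turned from 0.78 to -0.06.

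Among the 8 acinar transcription factor genes, 7 lay higher without overlap and 6 were called (median difference 3.05). Ptf1a, the DNA-binding core of PTF1, stood at 10.5, 63.4 and 28.1 CPM in control 1, Traf6 KO 1 and Traf6 KO 2. It stood at 0.585, 0.117, 0.706 and 1.23 CPM in controls 2 and 3, the sample labelled control 4 and Traf6 KO 3, on 4 to 38 counts. Rbpjl, its acinar partner, stood at 103, 627 and 303 CPM against 2.65, 2.11, 14.1 and 9.23 CPM, and kept to 0.725 to 1.14 per 1000 of the 10-gene sum. Nr5a2 and Gata4, which act with PTF1 in acinar cells, had differences of 3.79 and 3.81. Bhlha15 had a base level in every sample (101, 358 and 242 CPM against 59.2, 50.7, 40.1 and 45.5 CPM), as had Xbp1, the transcription factor of the unfolded protein response (273, 526 and 413 CPM against 244, 246, 210 and 265 CPM). The Xbp1 difference of 0.75 turned to -0.25 on plain totals. Gata6 overlapped, with its highest level in Traf6 KO 3 (26.9 CPM).

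Receptor and signalling genes divided. Of 14, 13 passed the filter, and 7 of these lay higher without overlap and were called. Cckar, the cholecystokinin receptor, stood at 39.4, 271 and 140 CPM in control 1, Traf6 KO 1 and Traf6 KO 2, against 3.62, 1.29, 7.27 and 3.98 CPM in controls 2 and 3, the sample labelled control 4 and Traf6 KO 3. Its sets were far apart, whereas Chrm3, the muscarinic receptor of acinar and beta cells, had 34.6, 38.4 and 35.4 CPM against 31.5, 41.2, 26.9 and 33.5 CPM and overlapped. The water channel gene Aqp12 (5.27), the gap junction genes Gjb1 (4.43) and Gjb2 (3.37) and the potassium channel gene Kcnq1 (3.20) were called higher. The VIP receptor gene Vipr1 (0.07), the IP3 receptor gene Itpr3 (0.02), the bicarbonate transporter gene Slc4a4 (-0.27), the chloride cotransporter gene Slc12a2 (1.03) and Chrm1 (0.12) overlapped.

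Fgf21, a hormone that the exocrine pancreas makes and secretes (chr7:45613886-45615490 on GRCm38, reverse strand), had 35 counts in control 1, 334 in Traf6 KO 1 and 182 in Traf6 KO 2. It had 1 count in each of control 2, control 3 and the sample labelled control 4, and 30 counts in Traf6 KO 3. In CPM these were 1.23, 30.2 and 9.8 against 0.0279, 0.0293, 0.0353 and 0.972. The sets did not overlap, but Traf6 KO 3 came close to control 1. Per 1000 of the 10-gene sum Fgf21 was highest in Traf6 KO 3 (0.120), with 0.0395 and 0.0242 in Traf6 KO 1 and 2 and 0.00206 to 0.0119 in the controls. All Traf6 KO samples lay above all controls in this ratio. The edgeR log2 fold change of Traf6 KO over control was 5.40 ± 1.45 (SE, adjusted p = 0.201). It was 3.17 ± 0.57 (adjusted p = 0.243) with the log2 10-gene share as a covariate and 4.22 ± 0.54 (adjusted p = 0.107) with the acinar set as a term, so it passed in none of these edgeR fits.

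Genes of amino acid metabolism and protein export made up the next group. Of 20, 18 passed the filter, 16 lay higher without overlap and 14 were called, with a median difference of 3.15. Pdia2, a pancreatic disulfide isomerase, stood at 613, 3347 and 1656 CPM in control 1, Traf6 KO 1 and Traf6 KO 2, against 15.2, 13.1, 90.4 and 40.2 CPM in controls 2 and 3, the sample labelled control 4 and Traf6 KO 3. Erp27, another member of that family, had a difference of 5.99 and a ratio of 0.530 to 0.707 per 1000 in all samples. Slc38a3, a glutamine transporter (5.06), and Gamt, an enzyme of creatine synthesis (4.54), were called as well. Gatm, which makes the precursor for Gamt, had 148, 653 and 418 CPM against 48.2, 56.6, 57 and 59.3 CPM, hence a base level in all samples. P4hb, the general disulfide isomerase, had a difference of 0.63 that turned to -0.21 on plain totals.

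All 6 Reg genes that passed the filter, of 7, were called higher, with a median of 3.35. Reg1, a lectin-like secreted protein of acinar cells, stood at 4643, 24727 and 11582 CPM against 72.7, 77.4, 365 and 253 CPM in the same order, and its ratio of 21.3 to 32.6 per 1000 followed the enzymes. Reg2 (chr6:78395623-78408106 on GRCm38, forward strand) did not follow them. It had 280, 1861 and 598 CPM in control 1, Traf6 KO 1 and Traf6 KO 2, against 27.2, 17.2, 203 and 128 CPM, so the sample labelled control 4 came near control 1. Its ratio was 11.1, 7, 11.8 and 15.8 per 1000 in the acinar-poor samples and 1.96, 2.43 and 1.48 in the acinar-rich ones, 5.85-fold higher in the acinar-poor by the medians. Reg3b, an antimicrobial lectin, was also relatively richer in acinar-poor samples (0.489 to 2.43 per 1000 against 0.135 to 0.268).

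**Figure D3:**
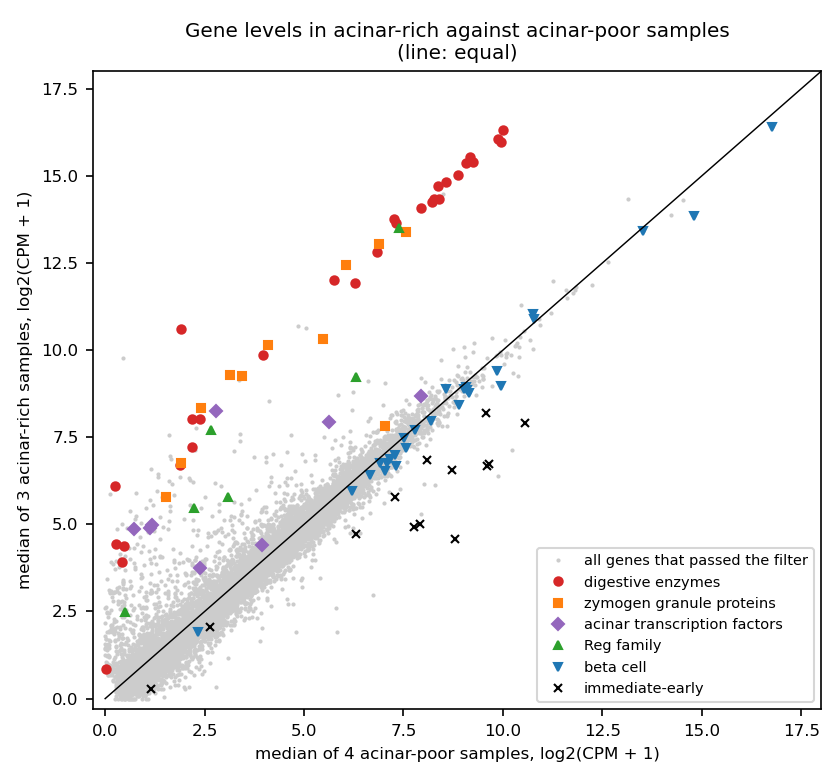
Median level of each gene in the 3 acinar-rich samples (vertical) against the 4 acinar-poor samples (horizontal), both as log2(CPM + 1); grey points are the 16203 genes that passed the filter, coloured points are gene lists, and the line marks equal levels. Digestive enzyme genes lie above the line by a median of 6.25, beta-cell genes lie close to it, and immediate-early genes lie below it by a median of 2.16.

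Together the 6 exocrine lists held 91 genes in the table, of which 85 passed the filter and 71 were called higher. The 10 genes that formed the sets are among the 71. Of the 452 genes called higher, 381 are in none of these lists. In 432 of the 452 the level rose from control 1 over Traf6 KO 2 to Traf6 KO 1, the order of the 10-gene share. The same count over all genes was not made, and these genes were called on the same samples, so it is a description only.

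Outside the exocrine lists, among protein-coding genes whose symbol is not a predicted or Riken name, those with the largest differences were Slc39a5 at 6.07, Nupr1 at 5.62 and Gal at 5.53. The predicted gene Gm5771, named after its values were seen, had a larger difference of 9.36. Slc39a5, a zinc importer (chr10:128395931-128401229 on GRCm38, reverse strand), stood at 65.3, 313 and 189 CPM in control 1, Traf6 KO 1 and Traf6 KO 2, against 0.836, 0.936, 7.13 and 3.14 CPM in controls 2 and 3, the sample labelled control 4 and Traf6 KO 3. Gal, the neuropeptide galanin, stood at 47.9, 311 and 94.6 CPM against 0.223, 0.410, 2.26 and 2.04 CPM. The sets were far apart in both genes, and the sample labelled control 4 was the highest of the acinar-poor samples. The others were Hsd17b13, a lipid droplet enzyme (5.50), Ggt1, a glutathione-cleaving enzyme (5.36), Klk1b5, a kallikrein (5.15), Tead2, a transcription factor of Hippo signalling (4.68), Cabp2, a calcium-binding protein (4.67), Hamp2, a hepcidin (4.61), Gls2, a glutaminase (4.47), Myo5c, a myosin of exocrine secretory granules (4.47), and Homer2, a scaffold protein (4.47).

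Stress and injury genes moved singly and in both directions. Of 24 genes of acinar injury and dedifferentiation, 22 passed the filter, 2 were called higher and 0 lower, and the median difference was 0.02. The differences ran from -2.87 to 5.62, and the largest below 0 were in genes whose sets overlapped. Nupr1, a stress-induced chromatin protein (chr7:126623249-126630861 on GRCm38, reverse strand), stood at 677, 2592 and 1603 CPM in control 1, Traf6 KO 1 and Traf6 KO 2, against 38.4, 23, 61 and 25.9 CPM in controls 2 and 3, the sample labelled control 4 and Traf6 KO 3. Clu, a secreted chaperone, stood at 264, 1129 and 529 CPM against 105, 90.3, 156 and 167 CPM. Both sets were apart in these genes, but Sox9 (2.14, 11.5 and 5.06 CPM against 1.11, 0.614, 2.29 and 1.62 CPM) and Krt19 (0.946, 8.5 and 3.5 CPM against 1.09, 0.205, 1.34 and 1.04 CPM), which ducts and dedifferentiated acinar cells share, overlapped through control 1. Among 26 genes of endoplasmic reticulum chaperones and translocation, all of which passed the filter, 1 was called higher. This was Sel1l, a component of the degradation machinery of the reticulum, at 185, 655 and 556 CPM against 96.6, 95.3, 94.4 and 117 CPM. The chaperones as a list had a median difference of -0.09.

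Markers of other cell types were set beside these. Of the 16 ductal markers, 14 passed and 1 was called higher, Muc1 (4.91), which also stands among the granule genes. The summed ductal level was 604 to 705 CPM in acinar-rich and 461 to 572 CPM in acinar-poor samples. Without Muc1, a choice made after seeing the data, it was 496 to 594 against 457 to 571 CPM and overlapped. Of 16 stellate and fibroblast markers 1 was called higher, Acta2, a smooth muscle actin (1.09, and -0.02 on plain totals), and the summed level was 214.3 to 453 against 200 to 311 CPM. Of 9 Schwann and neural markers 1 was called higher, Cryab, a small heat-shock protein of many cell types (6.62, 29.9 and 13.7 CPM against 1.06, 0.936, 1.73 and 1.39 CPM). The defining Schwann gene Sox10 was at or under 0.431 CPM in acinar-rich samples and at 0.761 to 2.11 CPM in the others. Among the 12 endothelial, 12 of 14 macrophage and 12 lymphocyte markers that passed the filter, 0 were called. Their summed levels were 419 to 523 against 478 to 595 CPM, 145 to 253 against 175 to 526 CPM, and 15.4 to 92 against 16.7 to 469 CPM. The upper ends in the acinar-poor set were the sample labelled control 4 for macrophage markers and Traf6 KO 3 for lymphocyte markers. Of 6 adipocyte markers 1 passed the filter and was not called.

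No islet gene of the lists was called after TMM scaling, but most beta-cell genes had a difference below 0. Of 26 beta-cell genes 0 were called, and the median difference was -0.27, with a range from -0.98 to 0.33. On plain totals the median was -1.04, against -0.69 over all genes, so the size of the difference depended on scaling. Lower without overlap were 5 of the 26, beside 8.4% of all genes tested. Among the 5 was Neurod1, a transcription factor (-0.64, with 101, 74.5 and 109 CPM against 173, 129, 146 and 184 CPM). Others were Abcc8, a subunit of the ATP-sensitive potassium channel (-0.47), the fatty acid receptor gene Ffar1 (-0.25) and the connexin gene Gjd2 (-0.02). Higher without overlap was Pcsk1, a proinsulin-processing protease (0.33). Ins1, an insulin gene, had a difference of -0.91 but overlapped. It stood at 44500, 14715 and 12902 CPM in acinar-rich samples and 36449, 41063, 20889 and 10830 CPM in the others. Its lowest value was in acinar-poor Traf6 KO 3. The glucagon gene Gcg also overlapped (29649, 17130 and 20405 CPM against 22816, 15375, 24625 and 26836 CPM). Among 10 alpha-cell genes and 6 delta- and gamma-cell genes 0 were called, with medians of -0.15 and -0.17 (-0.90 and -0.95 on plain totals). Of 17 cell-cycle genes 6 lay higher without overlap, beside 10.1% of all genes tested, and 0 were called. Among the 6 was Top2a, a topoisomerase of dividing cells (9.46, 20.3 and 8.35 CPM against 1.59, 5.56, 6.5 and 5.44 CPM). Others of the 6 had low counts, such as the cyclin gene Ccnb1 with 6 to 40 counts per sample.

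**Figure D4:**
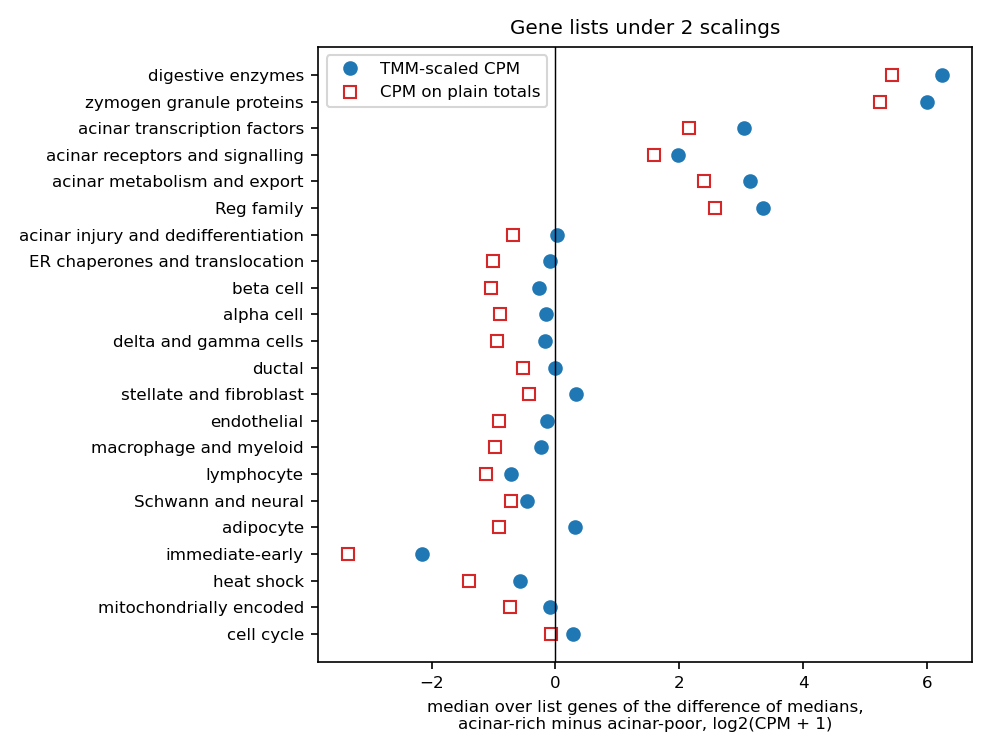
Median over the genes of each list of the difference between the sets, acinar-rich minus acinar-poor on log2(CPM + 1), with TMM scaling (filled circles) and with CPM on plain totals (open squares). Digestive enzymes lie at 6.25 with TMM, and all 22 lists move to the left on plain totals, where the median over all genes is -0.69; the stellate list turns from 0.34 to -0.43, the injury list from 0.02 to -0.68, adipocyte markers from 0.31 to -0.91 and the cell-cycle list from 0.29 to -0.07.

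Among the genes called lower were immediate-early genes. Of 13 immediate-early genes, which cells switch on within minutes of a stimulus, 3 lay lower without overlap and 2 were called lower (Egr1 and Nr4a1), with a median of -2.16. Egr1, a zinc-finger factor, stood at 214.2, 86.8 and 101 CPM in control 1, Traf6 KO 1 and Traf6 KO 2, against 800, 745, 566 and 2637 CPM in controls 2 and 3, the sample labelled control 4 and Traf6 KO 3. Nr4a1, an orphan nuclear receptor, stood at 47.8, 17 and 31 CPM against 155, 171, 309 and 883 CPM. Npas4, a factor induced by calcium influx (chr19:4984355-4990316 on GRCm38, reverse strand), had the largest difference of the genes named as lower at -3.73, with 6.79, 4.16 and 8.08 CPM against 80.5, 130, 10.7 and 448 CPM. In all 3 genes Traf6 KO 3 was far above the rest, and for Npas4 the sample labelled control 4 was close to the acinar-rich samples.

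Another 10 members of the list overlapped, and in 9 of these every acinar-rich sample lay below controls 2 and 3 and Traf6 KO 3, so that the sample labelled control 4 alone made the overlap. The exception was Egr2, whose level in Traf6 KO 1 (1.45 CPM) was above that in controls 2 and 3 (1.17 and 1.29 CPM). Fos had 193, 106 and 95.3 CPM in acinar-rich samples, 868 and 748 CPM in controls 2 and 3, 109 CPM in the sample labelled control 4 and 2655 CPM in Traf6 KO 3. Jun had its lowest level of all in the sample labelled control 4 (67.7 CPM, against 225 to 390 CPM in acinar-rich samples). Among 10 heat-shock genes 1 was called lower, Dnajb1, a co-chaperone (67.6, 32 and 38.2 CPM against 258, 228, 92.5 and 1901 CPM), while Hspa1a, the inducible Hsp70 chaperone, overlapped (222, 55.4 and 82.6 CPM against 994, 880, 61.1 and 2404 CPM). The remaining genes named as lower were Klf2, a zinc-finger factor (-1.94), Gem, a small GTPase (-1.85), Sik1, a salt-inducible kinase (-1.65), C2cd4a (-1.46), the tubulin gene Tuba1a (-1.38), Socs3, a feedback inhibitor of cytokine signalling (-1.36), Nfil3, a transcription factor (-1.36), and Ddit4, an inhibitor of mTOR signalling (-1.33). Of all 44 genes called lower, Traf6 KO 3 was the highest of the acinar-poor samples in 33, and the sample labelled control 4 was the lowest of them in 20. Within the acinar-rich set 14 of the 44 fell in the order control 1, Traf6 KO 2 and Traf6 KO 1. None of these counts was made over all genes, so whether they are particular to the 44 genes was not tested.

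**Figure D5:**
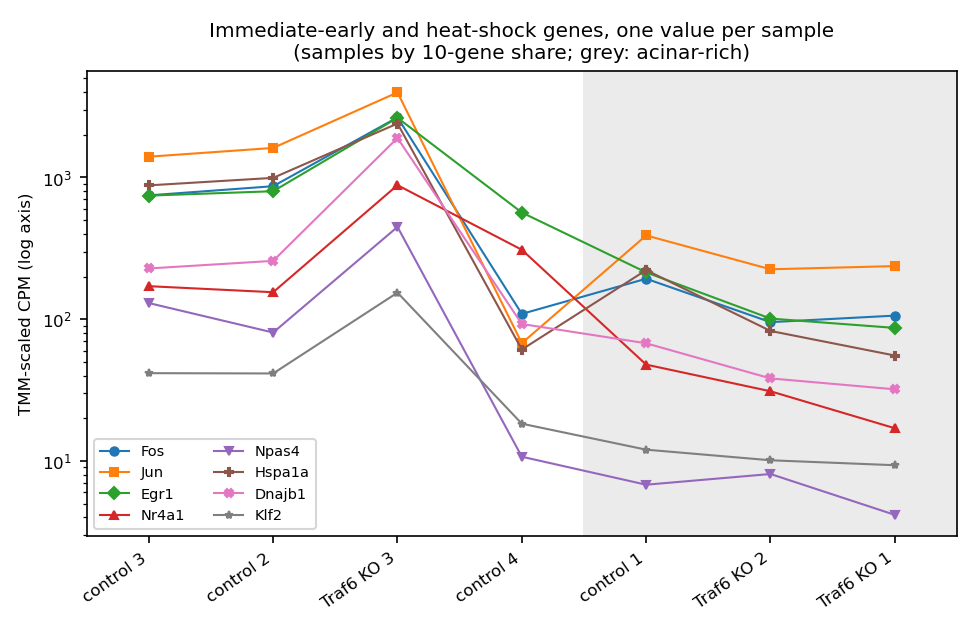
Level of 8 immediate-early and heat-shock genes in TMM-scaled CPM on a log axis, 1 point per gene and sample, with samples ordered by 10-gene share and the acinar-rich ones on grey. Traf6 KO 3 is the highest sample in each gene, and controls 2 and 3 lie above the acinar-rich samples. Control 4 as labelled lies below the acinar-rich samples in Jun (67.7 CPM) and above them in Egr1 (566 CPM).

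Both sets hold both genotypes, 1 control and 2 Traf6 KO samples in the acinar-rich and 3 controls and 1 Traf6 KO sample in the acinar-poor set, so the sets are not the genotypes but are unevenly filled by them. The log2 of the 10-gene percentage averaged 0.39 with an SD of 2.61 over the 4 controls, and 3.43 with an SD of 2.86 over the 3 Traf6 KO samples. An exact permutation test, two-sided, of the difference of 3.04 gave p = 0.1714 over the 35 arrangements of the samples, where 0.0571 is the smallest possible p. It was about the size of the spread within each genotype, and each genotype had samples on both sides.

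In the edgeR quasi-likelihood test between genotypes, 0 of 16203 genes (0%) had an adjusted p under 0.05 and 2589 had an unadjusted p under 0.05. DESeq2's Wald test called 744 genes, so the count of 0 depends on the tool, and without Traf6 KO 3 edgeR called 701. All 85 exocrine genes tested had a log2 fold change above 0, with a median of 3.11 against 0.01 over all genes, 28 had an unadjusted p under 0.05, and the lowest adjusted p was 0.176. For Ctrb1 the mean was 8902 CPM (SD 14819) over the 4 controls and 83375 CPM (SD 82600) over the 3 Traf6 KO samples, and edgeR put the log2 fold change at 3.23 ± 1.77 (SE) with an adjusted p of 0.402. With the log2 10-gene share as a covariate its log2 fold change was 0.04 ± 0.37, and the exocrine median fell to 0.27, with 77 of 85 genes above 0. With the acinar set as a term the median was 1.02. The 10-gene share is itself made of such genes, so these 2 fits take out part of what they measure. The edgeR log2 fold changes were 3.37 ± 1.48 for Ptf1a (SE, adjusted p = 0.319) and 3.36 ± 1.58 for Rbpjl (adjusted p = 0.342).

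Within each set the genotypes were also compared, with a single control or a single Traf6 KO sample on 1 side, which is assumed to vary like the others. Among the acinar-rich samples edgeR called 447 genes higher and 20 lower in Traf6 KO 1 and 2 than in control 1. Of the 447, 277 are among the 452 genes called higher in the acinar-rich set and 45 are exocrine list genes, and both Traf6 KO samples have more acinar RNA than control 1 (38.3% and 29.99% against 13.6%). The fit to the acinar-rich samples tested 15946 genes. Genotype and acinar share cannot be told apart in these 3 samples. Among the acinar-poor samples, Traf6 KO 3 stood alone against the 3 controls. So few of the 17851 genes tested were called there that their overlap with those 452 genes or the exocrine lists is not read as a result. Traf6 KO 3 is the sample with high Xist, so the part of sex in these calls was not tested.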

How the data were processed

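The authors deposited whole-number gene counts (100% of values are whole), not normalized, for 7 samples in 1 table of 55487 genes, of which 55227 identifiers matched GENCODE M21. STAR 2.6.1b, RSEM 1.3.1, FastQC and GRCm38 are named, with no role or order, per the submitters' processing notes, so the counts may be rounded estimates in which reads of similar genes are divided. Which annotation and strand setting were used is not given in the sources used here, and reads of overlapping genes cannot be told apart. Paired reads had 151 cycles, per the labels' protocols. Totals ran from 22104256 to 29917292. No pair of samples agreed within sampling noise (lowest chi-square per gene 21.82 over 21 pairs, genes with at least 20 counts).

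Groups came from the labels' genotype and sets from the summed counts of 10 genes. CPM is the count divided by total times TMM factor. The main test was edgeR 4.0.16 in R 4.3.3 (quasi-likelihood F test, TMM, filterByExpr with a minimum count of 10 and total of 15, genotype as the only term, Benjamini-Hochberg adjustment, threshold 0.05). DESeq2 1.42.0 and scipy 1.17.1 served for alternatives and for exact tests. The script was tested on simulated data. The members, the 22 gene lists and the tests were chosen with earlier results of these data known.

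Genes named are the 10 genes of the sets and Ptf1a, every exocrine list gene, up to 4 genes per other list by size of difference, up to 12 protein-coding genes in each direction outside the exocrine lists, with no predicted or Riken symbol, without overlap and with a median CPM of at least 10 in the higher set, and Traf6. Other genes named (Jun, Egr2, Gm5771, Abcc8, Ffar1, Gjd2, Pcsk1, Xist and Ddx3y) were chosen after their values were seen, and 2 genes that the rule names are not reported here. Alternatives were other scalings, filters, pseudocounts and thresholds, leaving out each sample, the acinar share, acinar set, tag or replicate number as a term, and each set alone. Same-numbered samples of the 2 genotypes had correlated deviations of 0.60, -0.18 and 0.45, so the numbers were not taken to pair them.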

Additional observations from a re-analysis of the deposited data

How the results depend on the processing

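Between genotypes edgeR called 0 genes in all samples and also with DESeq2 size factors, with TMM factors computed without exocrine genes, with no low-count filter, with a mean CPM of at least 1, with the tag series as a term, without any single sample other than Traf6 KO 3, and, chosen after seeing the data, among Q- and R-tagged samples. It called 1 gene with the acinar set as a term, 3 with the 10-gene share as a covariate, 6 with the replicate block, 67 in the acinar-poor and 467 in the acinar-rich samples alone, and the DESeq2 Wald test called 744. Leaving out 1 sample gave 0 to 701 genes, the highest without Traf6 KO 3. The same-numbered samples share only a number. Control 1 correlated best with its own number (0.60 with Traf6 KO 1, 0.53 with Traf6 KO 2), and so did control 3 (0.45 with Traf6 KO 3). Control 2 correlated best with Traf6 KO 3 (0.48) and at -0.18 with its own number. The 452 genes higher in acinar-rich samples became 266 on plain totals and 228 with medians 2 apart, and 354 to 711 when 1 sample was left out, the highest without control 1. The 44 lower genes became 2474 on plain totals, 70 on totals outside the exocrine lists, 73 with a pseudocount of 0.5, 5 with medians 2 apart, 77 among Q- and R-tagged samples, and 46 to 93 when 1 sample was left out. Leaving out a sample makes it easier for sets not to overlap.

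On plain totals 4 named differences reversed, Rab3d to -0.06, Xbp1 to -0.25, P4hb to -0.21 and Acta2 to -0.02. The other 1592 values of named differences moved by less than their spread and 84 by more. Of the genotype fold changes of named genes, Ctrb1 reversed to -0.01 in the acinar-poor samples alone, Cela3b to -0.09 with the share covariate and -0.27 in the acinar-poor samples, and Gcg to 0.35 in the acinar-poor samples. With 1 sample left out Gcg ran from -0.30 to 0.05, reversing without control 1 (0.05) and without Traf6 KO 1 (0.04). The cause was not tested. Ptf1a passed in the acinar-rich samples alone (log2 fold change 2.09, edgeR adjusted p = 2.01e-06), where the share differs too, and the DESeq2 Wald test passed Ins1 (-1.46, adjusted p = 1.46e-05) and Ins2 (-0.62, adjusted p = 0.00197). The genotype difference in log2 10-gene share was 2.13 to 4.69 when 1 sample was left out, and none of these designs is large enough for an exact permutation test to pass the threshold. Depth limits the acinar-poor values of Prss1, Fgf21, Ptf1a, Gjb2, Reg3g and Amy2a1, among others, which rest on 38 counts or fewer. Those of Gjb1 rest on 42 counts or fewer.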

Other observations

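Immunoglobulin variable genes were the genes called between genotypes once the acinar content was in the edgeR fit. With the log2 10-gene share as a covariate these were Ighv1-80, Igkv15-103 and Ighv6-3, and with the acinar set as a term Ighv1-80 alone. They were high in Traf6 KO 3, with 16.1 CPM for Ighv1-80, 25.9 CPM for Igkv15-103 and 46.9 CPM for Ighv6-3. In Traf6 KO 1 and 2 they stood at 0.633 and 0.862 CPM, 1.45 and 1.13 CPM, and 0.633 and 0.539 CPM, and in the samples labelled control none exceeded 0.752 CPM. Variable genes are similar in sequence, so the level of a single one is uncertain.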
